A study of Mus musculus with 45 samples.

Results

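Fatty acid synthesis and desaturation genes were followed in the colonic epithelium of young male mice across a high-fat diet and a later switch to a low-fat diet. The genes, 10 of the 24918 entries of a count table from RNA sequencing (RNA-seq), were chosen by symbol. They were Acly, Acaca, Fasn, Elovl6, Scd1, Scd2, Fads1, Fads2, Elovl5 and Srebf1. Their choice drew on the levels in these same libraries, so the differences between diets below are a description, and no p-value is given for any of them. All 10 genes passed the filter on low counts, which kept 12961 entries.

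The mice were C57BL/6 males by the labels (C57BL/6J in the study's methods) that entered the study at 6 weeks of age, with 5 mice per regimen, and no genetic change or drug is named for any group. Control mice ate a diet with 10% of its energy from fat for 20 weeks, and obese mice ate a diet with 60% fat for 20 weeks. Formerly obese mice spent 15 weeks on the high-fat diet followed by 5 weeks on the low-fat diet, so all groups were of the same age when their colon was taken. The epithelium of the entire colon was stripped with EDTA, a chelator that loosens it from the wall, and 1 RNA library was made per mouse. The same regimens were also studied by bisulfite sequencing, which reads the methylation of CpG sites, cytosines followed by a guanine. The descriptions name 5 samples per group but no cage, litter or sequencing batch.

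Animal cells build fatty acids from acetyl-CoA in the cytosol. ATP citrate lyase (Acly) releases acetyl-CoA from citrate, acetyl-CoA carboxylase 1 (Acaca) turns it into malonyl-CoA, and fatty acid synthase (Fasn) joins these units into palmitate. The elongase Elovl6 lengthens palmitate to stearate, and the stearoyl-CoA desaturases (Scd1 and Scd2) place the first double bond, which yields oleate and palmitoleate. A separate branch starts from essential fatty acids of the diet, in which Fads2 and Fads1 are the delta-6 and delta-5 desaturases and Elovl5 the elongase between them. Srebf1 encodes SREBP-1, a membrane-bound transcription factor that drives many of these genes and whose release is restrained by sterols and by unsaturated fatty acids.

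Regions with changed DNA methylation lay in or near some of the genes. The authors compared obese with control mice by whole-genome bisulfite sequencing and deposited 8199 regions, of which 4123 were more methylated (hyper) and 4076 less methylated (hypo) in obese mice. The regions were short, with a median of 28 bp and 2 CpGs, and came with no value per mouse and none for formerly obese mice. The study reports that a part of its regions kept the change in formerly obese mice. Which regions those were was not read here. Scd2 held 5 of them, all hyper, and Scd1 had 1, also hyper, 835 bp upstream of its start. Elovl6 and Elovl5 each held 1 hypo region in an intron, a hyper region lay 73370 bp outside Elovl5, and Fasn had 1 hypo region 9146 bp upstream of its start.

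The sequences of the desaturase regions and of the Elovl6 region are shown because they mark where methylation differed in the Scd genes and in a gene that stood above control after the diet switch. They were read from the plus strand of the RefSeq GRCm38 assembly (mm10), and capitals mark the CpGs of each region. The Scd1 region was chr19:44408541-44408547, shown with flanks as chr19:44408514-44408574. The Scd2 regions, numbered from the gene start, were chr19:44297959-44298041, chr19:44298477-44298482 (shown with flanks as chr19:44298450-44298509), chr19:44300010-44300080, chr19:44301321-44301342 and chr19:44302861-44303027. The Elovl6 region was chr3:129571339-129571365, shown with flanks as chr3:129571322-129571382.
Scd1 region: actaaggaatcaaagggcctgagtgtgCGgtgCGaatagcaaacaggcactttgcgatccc
Scd2 region 1: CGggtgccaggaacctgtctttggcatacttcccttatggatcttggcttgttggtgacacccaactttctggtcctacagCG
Scd2 region 2: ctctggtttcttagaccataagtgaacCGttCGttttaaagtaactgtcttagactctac
Scd2 region 3: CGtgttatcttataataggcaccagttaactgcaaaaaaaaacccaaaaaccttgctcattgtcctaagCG
Scd2 region 4: CGataCGcCGtggtgctcaaCG
Scd2 region 5: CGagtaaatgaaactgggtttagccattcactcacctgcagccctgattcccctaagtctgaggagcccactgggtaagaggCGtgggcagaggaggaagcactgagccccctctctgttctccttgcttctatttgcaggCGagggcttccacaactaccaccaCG
Elovl6 region: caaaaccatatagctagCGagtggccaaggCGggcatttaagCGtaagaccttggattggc

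Of the 5 Scd2 regions, the fourth lay entirely in coding sequence (22 bases). The first and the fifth reached into coding exons with 2 and 27 bases and were otherwise intronic, and the other two lay in introns. Another hyper region lay 4949 bp upstream of the Scd2 start and another 28662 bp upstream. Scd2 spans 13.2 kb on chromosome 19, and Scd1 lies on the opposite strand of the same chromosome.

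Among all 24918 entries, 11.2% held at least 1 such region, against 3 of the 10 genes here. Within 10 kb the shares were 18.8% and 5 of 10, and within 100 kb 56.6% and 6 of 10. The shares over all entries were not matched to the spans of the 10 genes, and the part of gene span was not tested. Fads2, Acaca, Acly and Srebf1 had none within 100 kb, and the nearest region to Fads1 lay 37464 bp outside the gene. Of all entries, 38 (0.153%) held 5 or more regions, and Scd2 was the shortest of them, followed by Col6a6, a collagen gene of 138.7 kb. Of the 4270 entries that span 10 to 20 kb, Scd2 was the single one with 5 or more, and 301 (7.05%) held at least 1. The count of 5 was taken up after the Scd2 regions had been seen, and it carries no test. The centres of the 5 regions lay between 4324 and 9268 bp from the Scd2 start. Their number thus also depends on how neighbouring CpGs were joined into regions. None of the 233 CpGs measured in bisulfite PCR amplicons lay within 100 kb of a gene described here, so no value per mouse stands beside these regions.

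**Figure D1:**
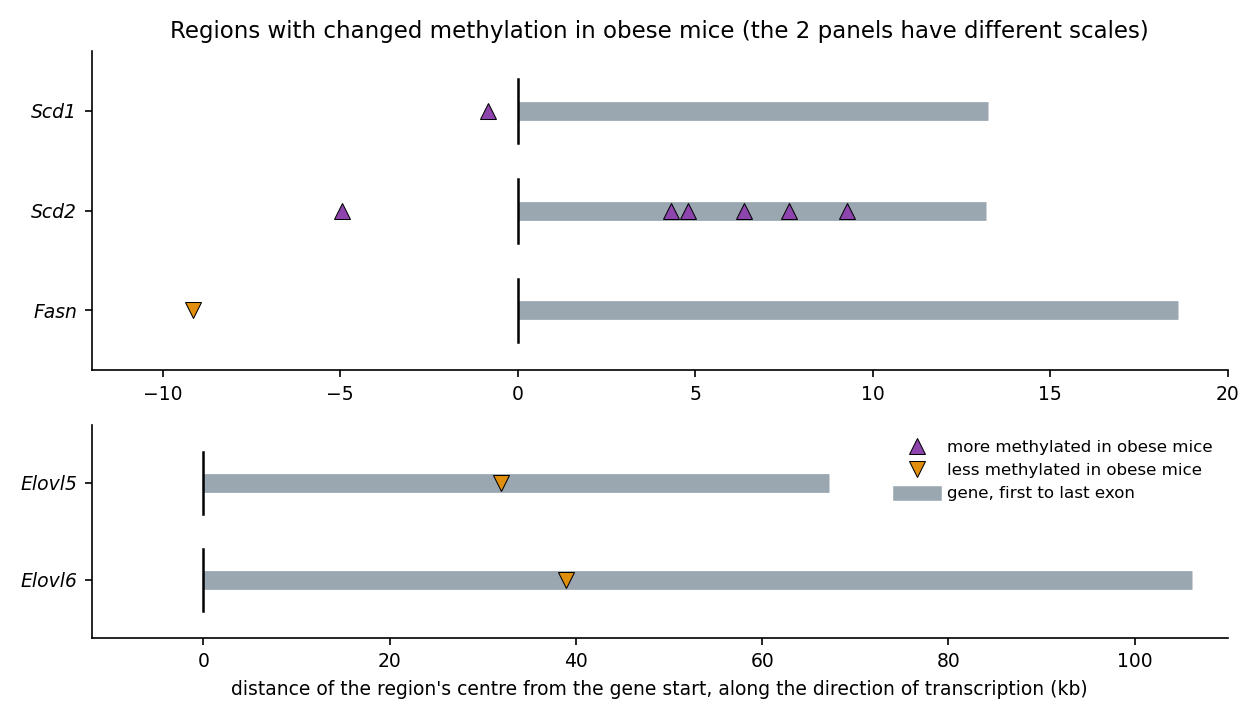
Regions with changed methylation in obese mice by distance from the gene start in kb (negative is upstream), with upward triangles for more and downward triangles for less methylation and grey bars for the genes; the 2 panels have different scales. In all, 5 upward triangles sit inside Scd2, between 4324 and 9268 bp from its start, and 1 lies 835 bp before Scd1, while the triangles drawn for Fasn, Elovl5 and Elovl6 point down (the hyper region 73370 bp outside Elovl5 lies beyond the axis).

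RNA levels are given as CPM, the counts of a gene per 1000000 counts of its library, after scaling between libraries. Library totals ran from 15230391 to 16749096 counts in control and obese mice and from 16114562 to 22762095 in formerly obese mice, with formerly obese 3 the deepest. Of the epithelial markers (8 genes, among them Epcam and Krt8), Car1 had the highest mean (5288 CPM). Car1 ran from 31368 to 218004 counts across libraries, where Epcam ran from 31048 to 45131. The list summed to 12622 to 19569 CPM in control, 14139 to 18108 in obese and 15338 to 21128 in formerly obese mice. Adipocyte markers (6 genes) summed to 2.82 to 5.48, 3.67 to 7.49 and 4.89 to 12.1 CPM in the same order, but 1457 of the list's 1466 counts were of Cidec, a lipid droplet gene. Of the others, Plin1, Retn and Lep had no count in any library, and without Cidec the list summed to at most 0.129, 0.0629 and 0.17 CPM. Squamous and sebaceous markers (10 genes) summed to 4.37 to 13.0, 3.97 to 10.5 and 3.45 to 10.8 CPM, with Mc5r at 0 throughout. This list includes the desaturase Scd3, which alone held up to 7.33, 5.47 and 6.76 CPM, and without it the sums were 4.31 to 5.70, 3.91 to 5.46 and 3.39 to 5.64 CPM. Immune markers (7 genes) summed to 19.3 to 31.3, 25.1 to 46.2 and 21.6 to 41.1 CPM, and stromal markers (8 genes) to 5.91 to 10.4, 7.21 to 11.3 and 7.08 to 19.8 CPM. The part of these cell types and of depth in the differences below was not tested. In a bulk sample, fewer cells of a type and less RNA per cell cannot be told apart.

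Per kb of exon, Scd2 was the most abundant of the 10 genes in control mice, at 332 ± 16.5 CPM per kb (SD, n = 5). Acly followed at 165 ± 5.25 and Fads2 at 126 ± 15.9 CPM per kb. Fasn stood at 38.2 ± 3.88, Elovl5 at 26.6 ± 1.76, Srebf1 at 25.1 ± 1.46 and Elovl6 at 18.0 ± 1.36 CPM per kb. The lowest were Scd1 at 11.6 ± 1.72, Fads1 at 7.10 ± 1.22 and Acaca at 4.16 ± 0.167 CPM per kb. Elovl5 and Srebf1 lay within each other's SD, and the other neighbours in this order were further apart than their SDs.

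**Figure D2:**
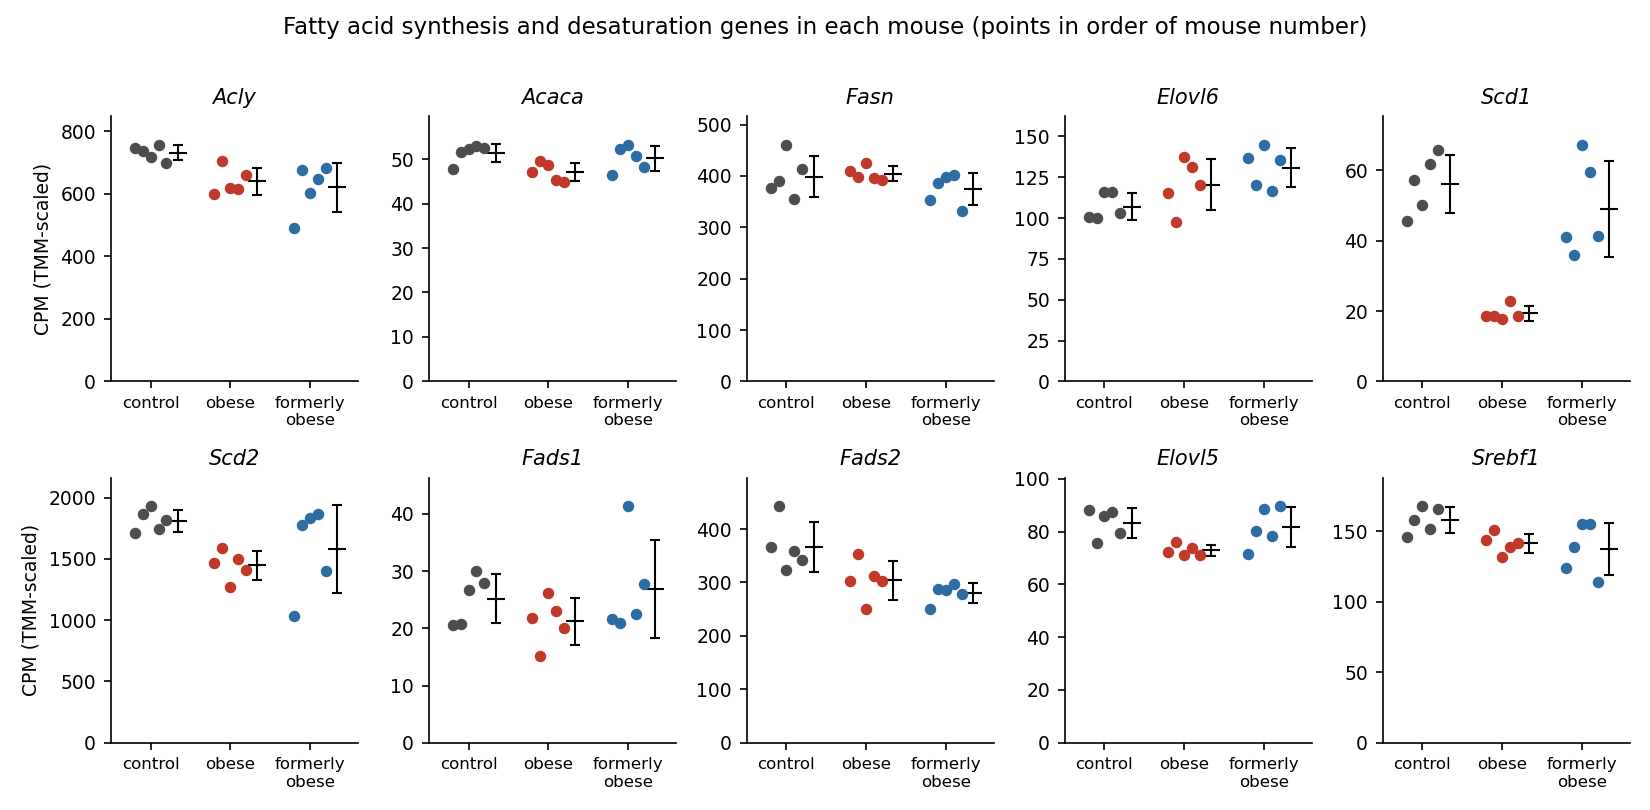
CPM of each gene (y axis, from 0) in every control, obese and formerly obese mouse, with points in order of mouse number and a bar at the right of each group for the mean ± SD (n = 5). Scd1 drops from 45.5 to 65.9 CPM in control mice to 17.8 to 22.9 in obese mice and spreads over 35.9 to 67.3 in formerly obese mice, while the other 9 genes move by far less.

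Obese mice were compared with control mice to see which steps differed on the high-fat diet. The cutoffs of the study were used for a call, namely a change of more than 1.2-fold, a p-value under 0.01 and an adjusted p under 0.25. By this rule 1 of the 10 genes was called, Scd1, where 1.5% of all tested genes were called. The estimate was below control for 8 of the 10 genes and above it for 2, and the median over the 10 was -0.19 on the log2 scale, against 0 over all tested genes. The libraries of the groups did not overlap for 2 genes, Scd1 and Scd2, and for 2.47% of all genes. These shares enter the choice of the genes and are given as background.

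Scd1, which makes oleate and palmitoleate, had the largest difference of the 10. In control mice its levels were 45.5, 57.2, 50.3, 61.9 and 65.9 CPM. In obese mice they were 18.6, 18.7, 17.8, 22.9 and 18.7 CPM. Every obese library lay far below every control library, and the obese mice were close to one another. The log2 fold change was -1.54 ± 0.17 (SE), or 0.344 times the control level. In formerly obese mice Scd1 stood at 41.0, 35.9, 67.3, 59.5 and 41.2 CPM. All 5 lay above the obese range, with 3 below the lowest control library. Against obese mice the log2 fold change was 1.35 ± 0.17, or 2.54-fold, and against control mice it was -0.19 with a 95% interval from -0.53 to 0.15. Without formerly obese 3 the estimate was -0.34, and its interval then left out 0.

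Scd2, the more abundant desaturase, differed less. Its levels were 1709, 1862, 1930.4, 1739 and 1819 CPM in control mice and 1469, 1587, 1271, 1502 and 1413 CPM in obese mice. All obese libraries again lay below all control libraries, by a log2 fold change of -0.32 ± 0.12, and Scd2 did not meet the cutoffs. Formerly obese mice had 1034, 1774, 1833, 1867 and 1404 CPM. Of these mice, 3 were inside the control range, while formerly obese 5 lay within the obese range and formerly obese 1 below it. The log2 fold change against control mice was -0.19 (95% interval -0.46 to 0.07), and without formerly obese 1 it was -0.07.

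Formerly obese mice were compared with control mice to see which genes returned to the control level. Of the 10 genes, 2 were called, Fads2 and Elovl6, where 3.59% of all tested genes were called. The libraries did not overlap for 3 genes, Fads2, Elovl6 and Acly, against 3.62% of all genes. Of the estimates, 8 were below and 2 above control, and their median was -0.14. A second reading asked whether the whole 95% interval lay within 1.2-fold of control (0.26 on the log2 scale). This held for 3 genes, Elovl5, Fasn and Acaca, and for 48.2% of all tested genes. Fasn and Acaca were already inside that margin in obese mice (intervals -0.12 to 0.16 and -0.23 to -0.02), so they show no return from outside it. The obese interval of Elovl5 reached beyond the margin (-0.32 to -0.07), but its estimate (-0.19) lay inside. A return from outside the margin is therefore not shown for Elovl5 either. For 4 genes, Fads2, Elovl6, Acly and Srebf1, the interval after the diet switch left out 0, as it did for 16.4% of all tested genes. For the remaining 3, Scd1, Scd2 and Fads1, the interval held 0 and also reached beyond 1.2-fold, so neither a return nor a lasting difference of that size was resolved with 5 mice a group. Both comparisons use the same control libraries, so their values stand side by side and are not independent.

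**Figure D3:**
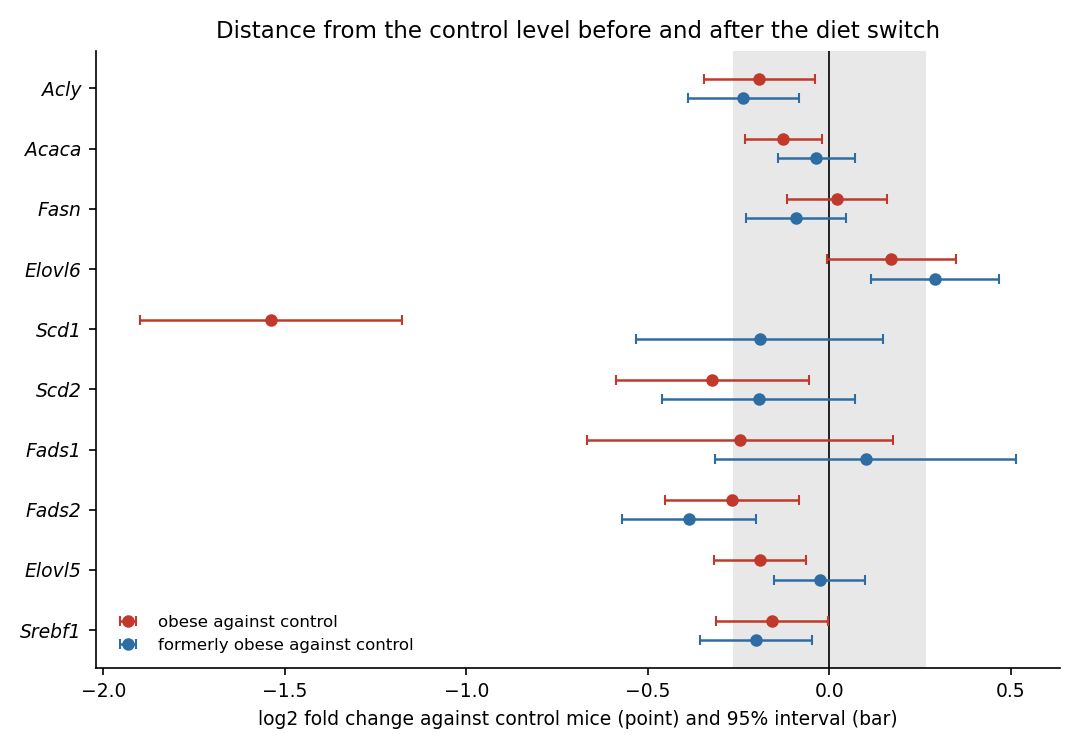
Log2 fold change against control mice (x axis) for obese (red) and formerly obese mice (blue), with 95% intervals as bars and a grey band for differences under 1.2-fold. Scd1 moves from -1.54 to -0.19. The blue bars of Elovl5, Fasn and Acaca lie inside the band, as do the red bars of Fasn and Acaca. The blue bars of Fads2, Elovl6, Acly and Srebf1 leave out 0.

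Fads2, the delta-6 desaturase of the polyunsaturated branch, had the lowest estimate against control of the 10 genes after the diet switch. Control mice had 367, 443, 322, 358 and 341 CPM, obese mice 302, 354, 249.8, 312 and 302 CPM, and formerly obese mice 250.0, 288, 286, 298 and 278 CPM. The obese and control ranges overlapped through obese 2, whereas every formerly obese library lay below every control library. The log2 fold change against control was -0.27 ± 0.09 in obese and -0.39 ± 0.09 in formerly obese mice, the latter 0.764 times the control level. Between formerly obese and obese mice it was -0.12, with an interval from -0.30 to 0.07.

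Fads1, the delta-5 desaturase, showed no such separation of the groups. Its levels were 20.5, 20.8, 26.6, 30.0 and 27.9 CPM in control mice, 21.8, 15.1, 26.1, 23.1 and 20.0 CPM in obese mice and 21.6, 21.0, 41.3, 22.4 and 27.8 CPM in formerly obese mice. The groups overlapped throughout, and formerly obese 3 was the highest library. The estimate against control was -0.25 in obese and 0.10 in formerly obese mice, with the latter interval from -0.32 to 0.51, and it turned to -0.12 without formerly obese 3. Elovl5, the elongase between these desaturases, ranged from 75.5 to 88.1 CPM in control, 71.0 to 76.1 in obese and 71.7 to 89.7 in formerly obese mice. Its log2 fold change was -0.19 ± 0.06 in obese and -0.03 in formerly obese mice (95% interval -0.15 to 0.10).

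Elovl6, which lengthens palmitate, was the 1 gene of the 10 that was called higher than control. Control mice had 101, 99.8, 116, 116 and 103 CPM, obese mice 115, 97.5, 138, 132 and 121 CPM, and formerly obese mice 137, 120.1, 145, 117 and 136 CPM. The obese libraries overlapped with control, and the formerly obese libraries all lay above them, the lowest by less than 1 CPM. The log2 fold change was 0.17 ± 0.08 in obese and 0.29 ± 0.08 in formerly obese mice, 22.2% above control. With each library's dependence on GC content removed the estimate was 0.25, and without formerly obese 3 it was also 0.25, each of them under the fold cutoff.

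Among the genes of palmitate synthesis, Acly lay below control in both groups, and Fasn and Acaca lay within 1.2-fold of it in both. Acly had 746, 739, 718, 758 and 699.5 CPM in control mice, 599, 707, 619.8, 615 and 661 CPM in obese mice and 491, 678, 603, 647 and 684 CPM in formerly obese mice. The library obese 2 reached into the control range and no formerly obese library did. The log2 fold change was -0.19 ± 0.07 in obese and -0.24 ± 0.07 in formerly obese mice, under the fold cutoff in both. Acaca ranged from 47.8 to 52.9 CPM in control, 44.7 to 49.6 in obese and 46.3 to 53.2 in formerly obese mice. Its log2 fold change was -0.13 ± 0.05 and then -0.04 (95% interval -0.14 to 0.07). Fasn ranged from 355 to 461, 391 to 426 and 332 to 402 CPM in the same order. Its estimates were 0.02 and -0.09, with intervals from -0.12 to 0.16 and from -0.23 to 0.05, both inside the 1.2-fold margin.

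Srebf1, the regulator, had 146, 158, 168, 152 and 165 CPM in control mice, 144, 151, 131, 139 and 141 CPM in obese mice and 124, 138, 155, 155 and 114 CPM in formerly obese mice. In all, 4 obese and 3 formerly obese libraries lay below the lowest control library. The log2 fold change was -0.16 ± 0.07 in obese and -0.20 ± 0.07 in formerly obese mice (95% interval -0.36 to -0.05). Srebf1 overlaps Rai1 on the other strand and 2 microRNA genes, and the strand setting of the counting is not given in the sources used here, so a part of its counts may belong to Rai1. Reads that match more than 1 Scd gene could also affect the counts of these genes, which was not tested.

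Between formerly obese and obese mice, 1 of the 10 genes was called, Scd1, where 2.51% of all tested genes were called. Scd1 was also the single gene whose libraries did not overlap, against 3.38% of all genes. The estimate was above that of obese mice for 6 genes and below it for 4, with a median of 0.11. Apart from Scd1, the largest estimates were 0.35 ± 0.20 for Fads1 and 0.16 ± 0.06 for Elovl5.

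Other genes of the pathway were read from 4 lists with 51 genes, of which 45 were tested. Across them 1 gene was called in obese and 1 in formerly obese mice against control, and 0 between formerly obese and obese mice. The medians over the 45 genes were -0.02, -0.01 and 0 on the log2 scale. Of all tested genes, 1.5%, 3.59% and 2.51% were called in these comparisons. The DESeq2 test gave the same 1, 1 and 0 calls. At an unadjusted p under 0.05 in edgeR the counts were 4, 6 and 12 of the 45 genes, where 10.7%, 16.4% and 13.1% of all tested genes had such a p. Both calls were Acss2, the cytosolic synthetase that makes acetyl-CoA from acetate. Control mice had 244 ± 16.3 CPM (SD, n = 5), obese mice 199 ± 17.4 and formerly obese mice 196 ± 14.4. Its log2 fold change was -0.29 ± 0.06 in obese mice and -0.32 ± 0.06 in formerly obese mice, against the same control libraries. Acss2 was known from earlier results of these data, and the study reports it as lower in obese mice. Its values are therefore a description, and no p-value is given for it. All 5 obese and all 5 formerly obese libraries lay below the lowest control library.

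A list of 12 genes covered carbon and NADPH supply, the second acetyl-CoA carboxylase and its regulators, and mitochondrial fatty acid synthesis. Of these, 11 were tested, 1 was called lower and 0 higher in each comparison with control. Pgd, of the pentose phosphate pathway, stood at 338 ± 21.7, 357 ± 5.99 and 349 ± 25.6 CPM in control, obese and formerly obese mice, and Idh1, the cytosolic isocitrate dehydrogenase, at 298 ± 15.0, 299 ± 11.1 and 283 ± 10.8 CPM. None of the 14 tested genes of other elongation and desaturation steps was called in edgeR, and 1, 0 and 2 of them had an unadjusted p under 0.05 in obese against control, formerly obese against control and formerly obese against obese mice. Among them were Elovl7, a fatty acid elongase, at 175 ± 12.6, 184 ± 8.93 and 177 ± 13.0 CPM, and Cyb5b, an outer mitochondrial cytochrome b5, at 531 ± 41.2, 517 ± 15.9 and 562 ± 48.5 CPM. The 4 tested acyl-CoA synthetases for long chains were not called either (1, 0 and 1 at an unadjusted p under 0.05). Acsl3 stood at 269.5 ± 26.2, 258 ± 17.4 and 298 ± 38.6 CPM and Acsl5 at 179 ± 9.28, 179.8 ± 2.45 and 180.1 ± 5.87 CPM. Of the 16 regulators none was called, and 1, 3 and 6 had an unadjusted p under 0.05, beside the shares of all genes given above. Srebf2, which encodes the sterol-regulated relative of SREBP-1, stood at 321 ± 7.38, 317 ± 17.1 and 304 ± 23.1 CPM, and Ppard, a fatty acid receptor, at 304 ± 11.2, 318 ± 23.4 and 287 ± 14 CPM.

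Whether the 10 genes varied together between mice on the same diet is a question that their choice by group differences did not use. Each group's mean was subtracted from log2 CPM, and the 45 pairs were compared over 15 mice. Of these, 33 correlations were positive, with a median of 0.21 and a range from -0.69 to 0.79. After adjustment over the 45 pairs, 1 pair passed at 0.05, Fads1 with Elovl6 (Pearson's r = 0.788, adjusted p = 0.0409, Spearman's rho = 0.807, adjusted p = 0.0281, two-sided permutation tests within groups). Without the mice farthest from the median in Fads1 (formerly obese 3 and obese 2) r was 0.728 and the adjusted permutation p 0.229, so the pair no longer passed.

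Srebf1 and Scd2 showed the next highest correlation. Pearson's r was 0.759 (adjusted permutation p = 0.15) and Spearman's rho 0.879 (adjusted permutation p = 0.0166). Without formerly obese 1 and formerly obese 4, r was 0.825 with an adjusted permutation p of 0.0315. Srebf1 and Fasn had r = 0.72 and rho = 0.786, with adjusted permutation p-values of 0.1 and 0.0891. Fads2 and Elovl6, the genes that stood apart from control in opposite directions, were also opposed within groups (r = -0.688, rho = -0.621), with adjusted permutation p-values of 0.133 and 0.183. In all, 8 pairs had an unadjusted p under 0.05. Scd1 was in none of these 8, and its correlation with Scd2 was 0.435 (rho = 0.457, adjusted permutation p = 0.642 and 0.508). Libraries share their depth and cell makeup across genes, and the part of these in the correlations was not tested.

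**Figure D4:**
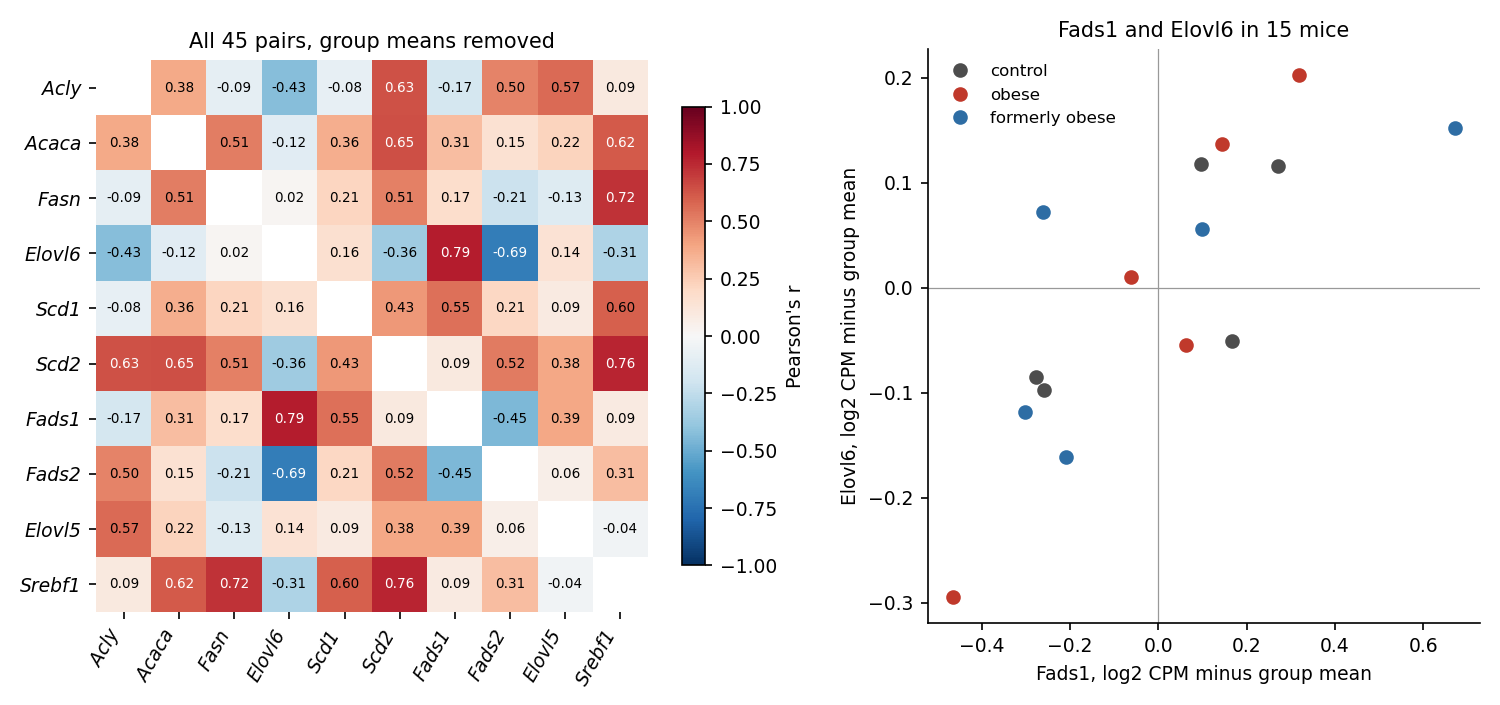
Pearson's r of log2 CPM over 15 mice for all 45 gene pairs after each group's mean was removed (left, colour scale from -1 to 1), and Fads1 against Elovl6 as log2 CPM minus the group mean (right, 1 point per mouse). Scd2 and Srebf1 are among the strongest positive pairs (0.759), Fads2 and Elovl6 the most negative (-0.688), and the obese mouse with the lowest Fads1 also has the lowest Elovl6 value.

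The genes whose log2 CPM over the 15 libraries was most like that of Scd1, Fads2 and Elovl6 were listed among 11026 genes with a mean of at least 50 counts. For Scd1 these were Ccbl2 (r = 0.903), Ccnd2 (0.819), Setd5 (0.79), Zfp7 (0.781) and Rell1 (0.777). With group means removed their r with Scd1 was 0.276, -0.185, 0.173, 0.249 and -0.003, so the likeness lay in the levels of the groups. For Fads2 they were Aldh1l1 (0.96), Npc2 (0.954), Ptpn13 (0.913), Acss2 (0.91) and Manbal (0.91). For Elovl6 they were Prom1 (0.927), Elmsan1 (0.911), Tmem43 (0.905), Sass6 (0.9) and Secisbp2l (0.9). For both of these genes the likeness remained between mice on the same diet, with within-group values from 0.803 to 0.931 for Fads2 and from 0.826 to 0.954 for Elovl6. The listed genes were picked by their r over these same libraries, so the within-group values are no independent reading of the likeness. These are descriptions over 15 libraries that share depth and cell makeup, and no test was made.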

How the data were processed

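RNA-seq, whole-genome bisulfite sequencing (WGBS) and sequencing of bisulfite PCR amplicons each covered 3 groups of 5 mice, grouped by the sample labels. The authors mapped paired RNA reads to mm10 with TopHat2 2.0.4 and deposited raw counts per gene from HTSeq, 1 column per mouse. The strand mode and annotation release are not given in the sources used here. The authors deposited WGBS regions as positions with a direction (Bismark, Rao-Scott test) and amplicon methylation as a fraction per CpG and mouse. The amplicon table holds no read depth. Deposited DESeq2 tables of fold changes and p-values were not used.

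Counts were fitted in edgeR 4.0.16 (R 4.3.3) by the quasi-likelihood test with robust spread, filterByExpr and TMM scaling, all 15 libraries in 1 fit with group as the term. SEs and 95% intervals come from that fit, and adjusted p-values follow Benjamini and Hochberg over all tested genes. Replicates are separate mice. No libraries were alike within counting noise (smallest chi-square per degree of freedom within a group 5.72). The fit was first tested on simulated data (12961 genes, groups of 5). There it called 83 of 100 genes changed by 0.5 and 93 of 100 changed by 1 on the log2 scale. It made 35 false calls, and 0 in a comparison without change. The 95% interval held the true change for 96 of 100 genes changed by 0.5 and 89 of 100 changed by 1. Correlations over all 15 mice used 100000 permutations of mice within groups (numpy 2.4.6), the smallest possible p being 1e-05. Those without 2 mice used fewer permutations, so their smallest possible p was larger.

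Region positions were checked against RefSeq GRCm38.p6, on which 100.0% of region starts fall on a CpG. Of the entries, 158 had no RefSeq match. Promoter and protein sequences were not used here.

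The genes and lists were chosen with earlier results of these data known. Named genes were the 10 genes, every called gene of the 4 pathway lists and the 2 most abundant of each list, the 5 genes most like Scd1, Fads2 and Elovl6, and the marker lists. Alternatives covered scaling (DESeq2 1.42.0 size factors, upper quartile), the DESeq2 test, low-count filters, cutoffs, fewer groups in the fit, a replicate block, GC content and leaving out each library. A fit without robust spread was added after seeing the data.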

Additional observations from a re-analysis of the deposited data

Results flagged for a closer look

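A gap test on the highest and lowest library was run on the 10 genes in each of the 3 groups (30 tests), and chance flags about 1 in 20. It marked 2. Obese 4 stood apart in Scd1, at 22.9 CPM with the next obese mouse at 18.7, so that the gap was 0.809 of the group's range. That library remained below every control library. Control 1 stood apart in Acaca, at 47.8 CPM with the next control mouse at 51.6, a gap of 0.748 of the range.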

How the results depend on the processing

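All 720 recomputed fold changes of the 10 genes moved by less than 1 SD of the replicates, and 8 of them, each within 0.1 of 0 in the main values, had the other sign. In obese mice the called genes were 2 with upper-quartile scaling and with a replicate block (Scd1, Fads2), 3 with the DESeq2 test (Scd1, Scd2, Fads2) and 2 with only the 2 compared groups in the fit (Scd1, Scd2), and 1 to 3 when libraries were left out, with 2 without control 3 or obese 2 and 3 without formerly obese 1. In formerly obese mice against control the called genes were 1 (Fads2) at an adjusted p under 0.05 and with the GC trend removed, and 1 to 3 when libraries were left out, with Elovl6 lost without control 1 or formerly obese 3 and Acly added without formerly obese 2 or 5. Genes whose whole interval lay within 1.2-fold of control numbered 2 to 4, with Fasn lost without control 4 or formerly obese 4 and Scd2 added without formerly obese 1. Called genes of the other pathway lists in obese mice were 0 at an adjusted p under 0.05, 2 with only the 2 compared groups (Acss2, Acsl4) and 0 to 1 when libraries were left out, with 0 without control 2 or obese 3. Between formerly obese and obese mice they were 0 to 2, with Me1 called without formerly obese 2 and Acsl3 and Acsl4 without formerly obese 4. The count of all genes called in obese mice, 195, ranged from 29 without control 2 to 319 without obese 2, with 34, 46, 74, 123, 125 and 299 without obese 3, obese 5, obese 4, obese 1, control 1 and control 4. Between formerly obese and obese mice the count over all genes, 325, was 208 with the GC trend removed and 181, 185 and 146 without obese 1, obese 2 and formerly obese 5. Passing correlations were 2 by Spearman's rho. Genes with a region were 3 when only the gene body counted, against 5 within 10 kb.

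Over all tested genes, deviations of same-numbered mice had a mean correlation of 0.009 (range -0.231 to 0.333), against -0.002 for other pairs. This mean cannot show whether the labels' numbers pair mice. The replicate block moved the count of all genes called in obese mice from 195 to 231. It changed no call of the 10 genes other than Fads2 in obese mice. With the block the SE against control in obese mice fell for Scd1, Scd2, Fads1 (0.197 to 0.126), Fads2, Elovl6, Fasn, Acaca and Acly. It rose for Elovl5 (0.060 to 0.065) and Srebf1 (0.074 to 0.075). Region values per mouse and read depth per CpG were not used here, so no error stands on the methylation differences.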

Other observations

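Scd3, a desaturase gene of the same chromosome 19 cluster as Scd1 and Scd2, was either present or nearly absent in a library. Its counts were 97, 112, 0, 1 and 0 in control mice 1 to 5, 87, 1, 1, 0 and 0 in obese mice and 0, 1, 152, 111 and 1 in formerly obese mice. In all, 5 libraries held 87 to 152 counts and the other 10 at most 1, and both kinds occurred in each group. Of 12799 entries with a mean of at least 10 counts, 0 others separated these 5 libraries from the other 10 by at least 5-fold. In formerly obese mice the libraries with Scd3, 3 and 4, had the highest Scd1 levels (67.3 and 59.5 CPM, against 41.0, 35.9 and 41.2). Control mice did not show this order, since controls 1 and 2, with Scd3, had 45.5 and 57.2 CPM of Scd1, against 50.3, 61.9 and 65.9. Obese 1, with 87 Scd3 counts, had 18.6 CPM of Scd1, within the range of the other obese mice. Whether the levels of Scd1 and Scd3 are linked was not tested. The neighbour Scd4 had 2 to 14 counts in all libraries. Scd3 was singled out after its values were seen, and the cause was not tested.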
